A study of Drosophila melanogaster with 9 samples.

Results

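A set of 5 genes of chromosome arm 3L in Drosophila melanogaster is described here: pst, PGRP-SD, CG14823, CG7565 and CG14985. They were chosen by name, from earlier results of these data, because each had much lower counts in ovaries of DPLG4 mutants than in control ovaries, and they are 5 of the 17559 genes in the count files. That difference is therefore a description and carries no test. All 5 were among the 8427 genes with enough counts to be tested. The data are RNA counts from ovaries of 3 groups of flies with 3 libraries each: flies mutant for DPLG4, flies mutant for DPLG1, and control flies of the w1118 strain. DPLG1 and DPLG4 are host genes that descend from PIF transposases, and the study set the ovary transcripts of each mutant against those of controls. DPLG4 is CG7492, which also lies on 3L. The labels call the samples of each group biological replicates and give 1 rearing regime for all flies. The sources used here do not say how the alleles were made, how far each lesion reaches, how old the flies were or whether the mutants were crossed into the w1118 background.

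pst, PGRP-SD and CG14823 have known or predicted roles in host defence. pst (pastrel) is known in flies for natural variants that set survival after infection with Drosophila C virus, an RNA virus. PGRP-SD encodes a secreted peptidoglycan recognition protein, which binds bacterial cell wall fragments upstream of the Toll and Imd pathways, the signalling routes that switch on antimicrobial peptide genes. CG14823 is a predicted lysozyme of the invertebrate type, an enzyme class that cuts bacterial cell walls. No role is given here for CG7565 and CG14985, which are known by their annotation numbers. The ovary holds germline cells, the follicle cells around them and a muscle sheath, and it is usually dissected with little other tissue.

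The gene counts of the libraries summed to between 18078883 and 95751320. In control replicate 1 the reads outside genes, in several genes or with several alignments made up 72.0% of the total, against 11.5% to 13.8% in the other 8 libraries. Levels are given in CPM, a gene's reads scaled to a common library size by the TMM method of edgeR, and errors are SD over 3 libraries. The oocyte marker osk stood at 1648 ± 78.7 CPM in DPLG4 mutants, 1659 ± 246 CPM in DPLG1 mutants and 1617 ± 101 CPM in controls. The targeted gene CG7492 (3L, 7651866 to 7654752, minus strand) had 102, 147 and 77 counts in the DPLG4 mutant libraries 15, 3 and 7, against 2692, 13517 and 2910 counts in the control libraries 1, 2 and 3. It kept 1.11% of its control CPM in DPLG4 mutants. Coordinates are those of the Ensembl annotation of build BDGP6.54, and distances are between gene starts.

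pst (FBgn0035770) is a protein-coding gene at 7357275 to 7360263 on the minus strand of 3L, 0.295 Mb before CG7492, with 6 exon blocks. It had 2.52, 1.86 and 1.91 CPM in the DPLG4 mutant libraries 15, 3 and 7. The DPLG1 mutant libraries 22, 5 and 7 had 74.9, 82.3 and 81.6 CPM, and the control libraries 1, 2 and 3 had 64.3, 71.4 and 77.8 CPM. Every DPLG4 mutant library was far below every other library, and the DPLG1 mutant and control libraries overlapped. pst was not absent from DPLG4 mutants: 153, 180 and 97 reads remained, which left 2.95% of the control mean. The log2 fold change of DPLG4 mutant over control was -5.08 (SE 0.16), the second lowest of the 8427 genes after CG7492. The ratio of the summed counts, control over DPLG4 mutant, was 34.3, with a 95% exact interval of 31.2 to 37.9 that covers counting error only.

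PGRP-SD (FBgn0035806) is a gene of 1 exon at 7651180 to 7651900 on the plus strand, next to CG7492. Its counts were 3, 1 and 0 in the DPLG4 mutant libraries 15, 3 and 7, where the floor of 3 counts in the library at 0 corresponds to 0.0590 CPM. The DPLG1 mutant libraries 22, 5 and 7 had 39, 28 and 24 counts, or 0.462, 0.536 and 0.534 CPM. The control libraries 1, 2 and 3 had 15, 55 and 10 counts, or 0.640, 0.589 and 0.572 CPM. The gene was thus at a low level in every group and at or under the floor in DPLG4 mutants. The 4 reads of the DPLG4 mutants against 80 of the controls give a ratio, control over DPLG4 mutant, of 31.0 with an exact interval of 11.6 to 116, and the log2 fold change was -4.80 (SE 0.59). The fitted value rested on single reads: without DPLG4 mutant replicate 15 it was -6.10, and without replicate 3 or 7 of that group it was -4.39 or -4.38.

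CG14823 (FBgn0035734) lies at 7066314 to 7069463 on the plus strand, 0.586 Mb before CG7492. Its counts were 4, 9 and 6 in the DPLG4 mutant libraries 15, 3 and 7, or 0.0660, 0.0932 and 0.118 CPM. The DPLG1 mutant libraries 22, 5 and 7 had 0.308, 0.211 and 0.200 CPM, and the control libraries 1, 2 and 3 had 0.426, 0.428 and 0.458 CPM. The 3 groups did not overlap, with DPLG1 mutants between the others. The log2 fold change of DPLG4 mutant over control was -2.22 (SE 0.34), and 19 reads in all remained in DPLG4 mutants against 58 in controls.

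CG7565 and CG14985 had levels per kb of exon above those of 35.6% and 38.3% of tested genes in controls. CG7565 (FBgn0035833) lies at 8087635 to 8091786 on the minus strand, 0.436 Mb after CG7492. It had 7.01, 7.12 and 5.37 CPM in the DPLG4 mutant libraries 15, 3 and 7, against 37.2, 42.6 and 39.4 CPM in the control libraries 1, 2 and 3. In the DPLG1 mutant libraries 22, 5 and 7 it had 41.0, 48.9 and 45.1 CPM, a range that met that of the controls. It kept 16.4% of its control mean in DPLG4 mutants, a log2 fold change of -2.61 (SE 0.14).

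CG14985 (FBgn0035482) lies at 4003474 to 4006626 on the plus strand, 3.65 Mb before CG7492 and the farthest from it of the 5. It had 5.10, 4.17 and 4.45 CPM in the DPLG4 mutant libraries 15, 3 and 7, against 41.0, 35.7 and 33.9 CPM in the control libraries 1, 2 and 3. In the DPLG1 mutant libraries 22, 5 and 7 it had 47.6, 38.9 and 42.6 CPM. The DPLG4 mutant libraries again stood alone, at 12.4% of the control mean and a log2 fold change of -3.01 (SE 0.14).

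**Figure D1:**
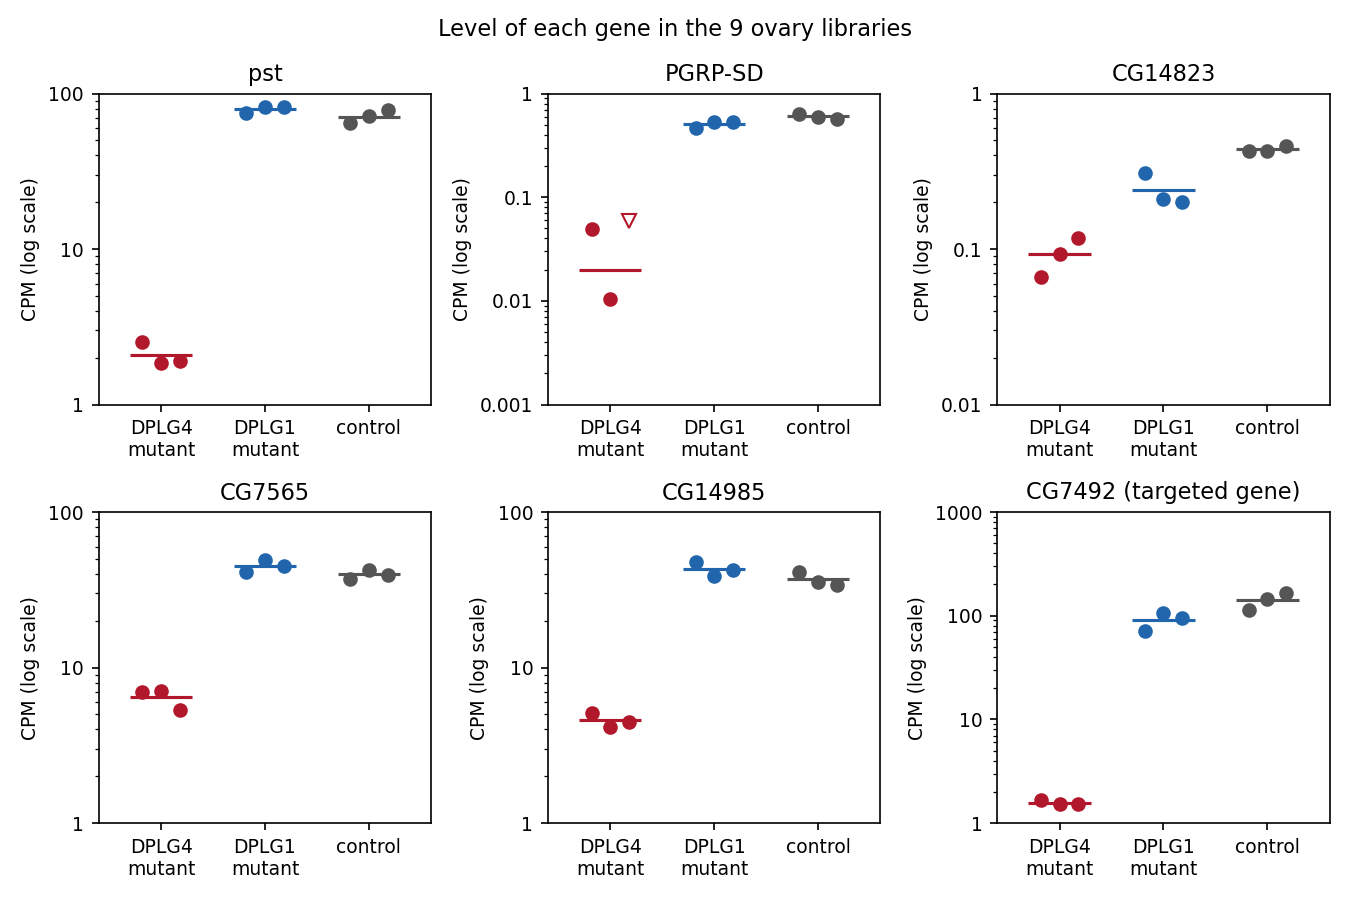
CPM on a log scale in each ovary library for the 5 genes and for the targeted gene CG7492; filled points are libraries, lines are group means, and the open triangle marks the floor of 3 counts for the DPLG4 mutant library in which PGRP-SD had 0 counts. In each panel the 3 DPLG4 mutant libraries lie below all others, and for CG14823 the DPLG1 mutant libraries lie between the other groups, at 0.200 to 0.308 CPM.

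In bulk RNA, fewer cells that express a gene and less RNA per cell cannot be told apart. By the rule that chose them, 5 of 5 members passed edgeR's threshold as lower in DPLG4 mutants (adjusted p under 0.05), where 0.154% of all tested genes did (0.427% in either direction). Likewise 5 of 5 had no library of DPLG4 mutants within the control range, where 6.79% of tested genes lay below that range in this way and 9.48% above it. Nothing is read from these counts. CG14823 and PGRP-SD passed the filter on low counts, about 0.194 CPM in at least 3 libraries, only through the DPLG1 mutant and control libraries. The share of the control level that remained was not in the order of distance from CG7492. It was 3.32% for PGRP-SD, the nearest, 2.95% for pst at 0.295 Mb, 16.4% for CG7565 at 0.436 Mb, 21.1% for CG14823 at 0.586 Mb and 12.4% for CG14985 at 3.65 Mb.

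Levels can be set side by side between genes only per length, here as CPM per kb of exon. In controls pst was the highest of the 5 at 27.1 ± 2.58 CPM per kb, followed by CG14985 at 12.7 ± 1.26 and CG7565 at 10.7 ± 0.727 CPM per kb. The libraries of these 3 genes did not overlap in controls, although CG14985 and CG7565 came close, with a lowest library of 11.7 for CG14985 and a highest of 11.4 CPM per kb for CG7565. PGRP-SD, at 0.833 ± 0.0484 CPM per kb, and CG14823, at 0.187 ± 0.00756 CPM per kb, were far below. pst had a higher level than 55.6% of tested genes in controls and CG14823 than 9.18%.

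The order changed in DPLG4 mutants. CG7565 led at 1.75 ± 0.263 CPM per kb, with CG14985 at 1.57 ± 0.164 CPM per kb, and their libraries overlapped. pst followed at 0.799 ± 0.141 CPM per kb, below every DPLG4 mutant library of those genes. CG14823 and PGRP-SD stood at 0.0395 ± 0.0111 and 0.0277 ± 0.0362 CPM per kb and overlapped. In DPLG1 mutants the order was that of the controls, with pst at 30.3 ± 1.54 CPM per kb, CG14985 between 13.4 and 16.4 CPM per kb and CG7565 at 12.1 ± 1.06 CPM per kb.

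The DPLG1 mutant libraries took no part in choosing the genes, so the comparison of DPLG1 mutant with control can be tested, although its control libraries are those that the choice used. None of the 5 passed edgeR's quasi-likelihood test with Benjamini-Hochberg adjustment over all 8427 genes, where 0.107% of genes passed (0.0475% lower and 0.0593% higher), so that 0 of 5 is no result about these genes. At an unadjusted p under 0.05 there was 1 of 5, CG14823, which was lower, where 9.85% of all tested genes were lower and 7.13% higher by that measure. DESeq2 called 0 of the 3 members to which it gave an adjusted p, beside 148 lower and 132 higher of all 8427 tested genes. That 0 of 3 is no result about these genes either. pst had a log2 fold change of 0.16 (SE 0.13, edgeR adjusted p = 0.489) and CG7565 of 0.18 (SE 0.13, edgeR adjusted p = 0.451). CG14985 stood at 0.22 (SE 0.12, edgeR adjusted p = 0.345) and PGRP-SD at -0.24 (SE 0.42, edgeR adjusted p = 0.764). For CG14823 the log2 fold change was -0.84 (SE 0.31, edgeR adjusted p = 0.276), with 46 reads in DPLG1 mutants and 58 in controls. In 2 of the 5, PGRP-SD and CG14823, all DPLG1 mutant libraries were below all controls, where 13.9% of all tested genes showed this (29.8% with no overlap in either direction, 15.8% higher).

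Set against DPLG1 mutants, again as a description since the DPLG4 mutant libraries chose the genes, the log2 fold change of DPLG4 mutant over DPLG1 mutant was -5.25 (SE 0.16) for pst and -3.24 (SE 0.14) for CG14985. It was -2.79 (SE 0.14) for CG7565, -4.56 (SE 0.58) for PGRP-SD and -1.39 (SE 0.33) for CG14823. CG14823 thus had the smallest difference of the 5 between the mutants.

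The nearest tested genes on either side of the members did not share their low level. Some of them were far off or had few reads. Those of CG14823 start 56.9 to 90.0 kb from it, and Mcad starts 68.2 kb from PGRP-SD. In control libraries 1, 2 and 3 Ank2 had 11, 3 and 4 counts and lncRNA:CR32385 had 14, 28 and 2. Closer genes that were not tested are not covered. For each member, the nearest 2 tested genes on each side were taken, 20 genes in all, leaving out the members and CG7492. In DPLG4 mutants against controls edgeR and DESeq2 called 0 of the 20. Over all 8427 tested genes edgeR called 0.154% lower and 0.273% higher, and DESeq2 called 72 lower and 156 higher. At an unadjusted p under 0.05 there were 0, where 3.45% of all tested genes were lower and 7.32% higher. Their log2 fold changes ran from -0.31 to 0.49, with the smallest edgeR adjusted p at 0.62. In DPLG1 mutants against controls edgeR called 0 of the 20, where 0.107% of all tested genes were called. Sec63 (lower) and CG32373 (higher) had an unadjusted p under 0.05, where 9.85% of all tested genes were lower and 7.13% higher.

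pst lies between CTCF, which encodes an insulator protein, and Sec63, which encodes a subunit of the machinery that moves proteins into the endoplasmic reticulum. CTCF, the nearest tested gene before pst, stood at 46.5 ± 12.2 CPM in DPLG4 mutants, 47.4 ± 9.36 CPM in DPLG1 mutants and 57.8 ± 8.28 CPM in controls. Sec63 starts 3.29 kb after pst and had 42.5, 50.7 and 68.4 CPM in the DPLG4 mutant libraries 15, 3 and 7, against 54.6, 61.8 and 80.3 CPM in the control libraries 1, 2 and 3. Both genes overlapped between DPLG4 mutants and controls (edgeR adjusted p = 0.62 and 0.656).

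Neighbours of the other members did not pass the test either. msl-3, a dosage compensation gene that starts 56.9 kb after CG14823, stood at 89.2 ± 1.43 CPM in DPLG4 mutants and 94.3 ± 1.02 CPM in controls (edgeR adjusted p = 0.676). Its DPLG4 mutant libraries, at 87.6 to 90.3 CPM, were below all controls, at 93.4 to 95.4 CPM, as in 6.79% of all tested genes. Nulp1 starts 22.7 kb after CG7565 and stood at 122 ± 9.65 CPM in DPLG4 mutants and 124 ± 3.71 CPM in controls (edgeR adjusted p = 0.912). Mul1, which encodes a mitochondrial ubiquitin ligase and is the nearest tested gene after CG14985, stood at 20.9 ± 1.52 CPM in DPLG4 mutants and 21.6 ± 0.456 CPM in controls (edgeR adjusted p = 0.826).

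**Figure D2:**
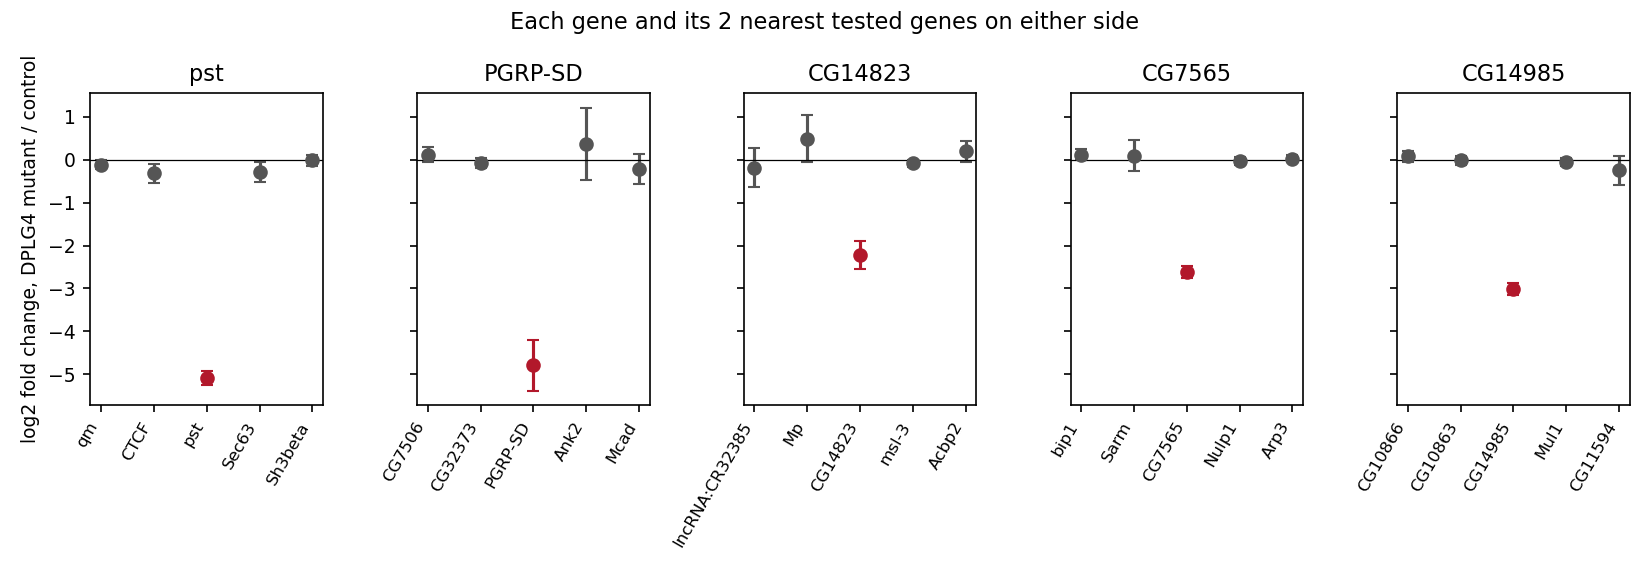
log2 fold change of DPLG4 mutant over control for each of the 5 genes (red, centre of each panel) and its 2 nearest tested genes on either side (grey), with bars of 1 SE. The 20 flanking genes lie between -0.31 and 0.49, and the 5 genes between -5.08 and -2.22.

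Few other genes were called near CG7492, but edgeR called only 0.427% of all tested genes in DPLG4 mutants against controls. A low count of calls is therefore no result about the genes around CG7492. Between the starts of CG14823 and CG7565, a stretch of 1.02 Mb that holds CG7492 and 4 of the members, 60 other genes were tested. edgeR called 0 of them in DPLG4 mutants against controls, 8 were under 0.05 by unadjusted p (6 higher and 2 lower), and 2 were called by DESeq2, both higher. Over all 8427 tested genes 7.32% were higher and 3.45% lower by unadjusted p, and DESeq2 called 156 higher and 72 lower. The median log2 fold change of the 60 was -0.05, beside -0.01 over all tested genes. Of the 60, 0 were more than 2-fold lower and 5 were more than 2-fold higher. A change beyond 2-fold in either direction was seen in 5.90% of all tested genes and in 7.47% of 3L genes without the members. Whether the 5 of 60 differ from these shares was not tested. Within 1 Mb of CG7492, 147 tested genes other than the members included 0 called lower and 1 called higher, or 0.680% called. Within 5 Mb, 658 such genes included 3 called lower and 5 called higher, or 1.22%, and over the whole arm 1566 such genes included 3 called lower and 16 called higher, or 1.21%. Off 3L, 6855 tested genes included 4 called lower and 7 called higher, or 0.160%. Calls in DPLG4 mutants were thus more frequent on 3L than elsewhere, also without the members, and with the members and CG7492 the arm held 9 of the 13 genes called lower. The difference between these shares was not tested. In DPLG1 mutants 0 genes of 3L were called, where 0.131% of tested genes off 3L and 0.107% of all tested genes were. That 0 is near these shares and is no result about the arm.

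The 3 lower calls on 3L that are not members were Ugt305A1, CG11357 and CG43064, taken here because they lie just outside the set. Ugt305A1 encodes a UDP-glycosyltransferase, an enzyme class that attaches sugars to small molecules. It starts 56.3 kb after CG14985 and stood at 0.332 ± 0.0622 CPM in DPLG4 mutants, 2.18 ± 0.366 CPM in DPLG1 mutants and 2.45 ± 0.553 CPM in controls (log2 fold change -2.86, edgeR adjusted p = 0.00262). The 5 tested genes that start between CG14985 and Ugt305A1 had log2 fold changes from -0.25 to 0.27. edgeR and DESeq2 called 0 of them, and there were 0 at an unadjusted p under 0.05. Over all tested genes edgeR called 0.427%, and 3.45% were lower and 7.32% higher by unadjusted p. Beside these shares the counts of 0 of 5 are no result.

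CG43064, 4.18 Mb after CG7492, had 0.198, 0.248 and 0.118 CPM in the DPLG4 mutant libraries and 3.97, 2.10 and 1.37 CPM in the control libraries (log2 fold change -3.67, edgeR adjusted p = 0.0219). It was low in DPLG1 mutants too, at 0.769, 0.364 and 0.711 CPM, below every control, without passing the test (edgeR adjusted p = 0.228). The control libraries were spread widely, at 2.48 ± 1.34 CPM. DPLG4 mutant library 7 lay under the filter on low counts, about 0.194 CPM in at least 3 libraries, which CG43064 passed through the other groups. CG11357, 3.11 Mb before CG7492, stood at 91.9 ± 3.50 CPM in DPLG4 mutants, 163 ± 3.44 CPM in DPLG1 mutants and 158 ± 2.34 CPM in controls (log2 fold change -0.78, edgeR adjusted p = 0.00349). Ugt305A1 and CG43064 were lower by more than CG14823, which is a member, so the set does not hold all genes of the arm with a large decrease.

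**Figure D3:**
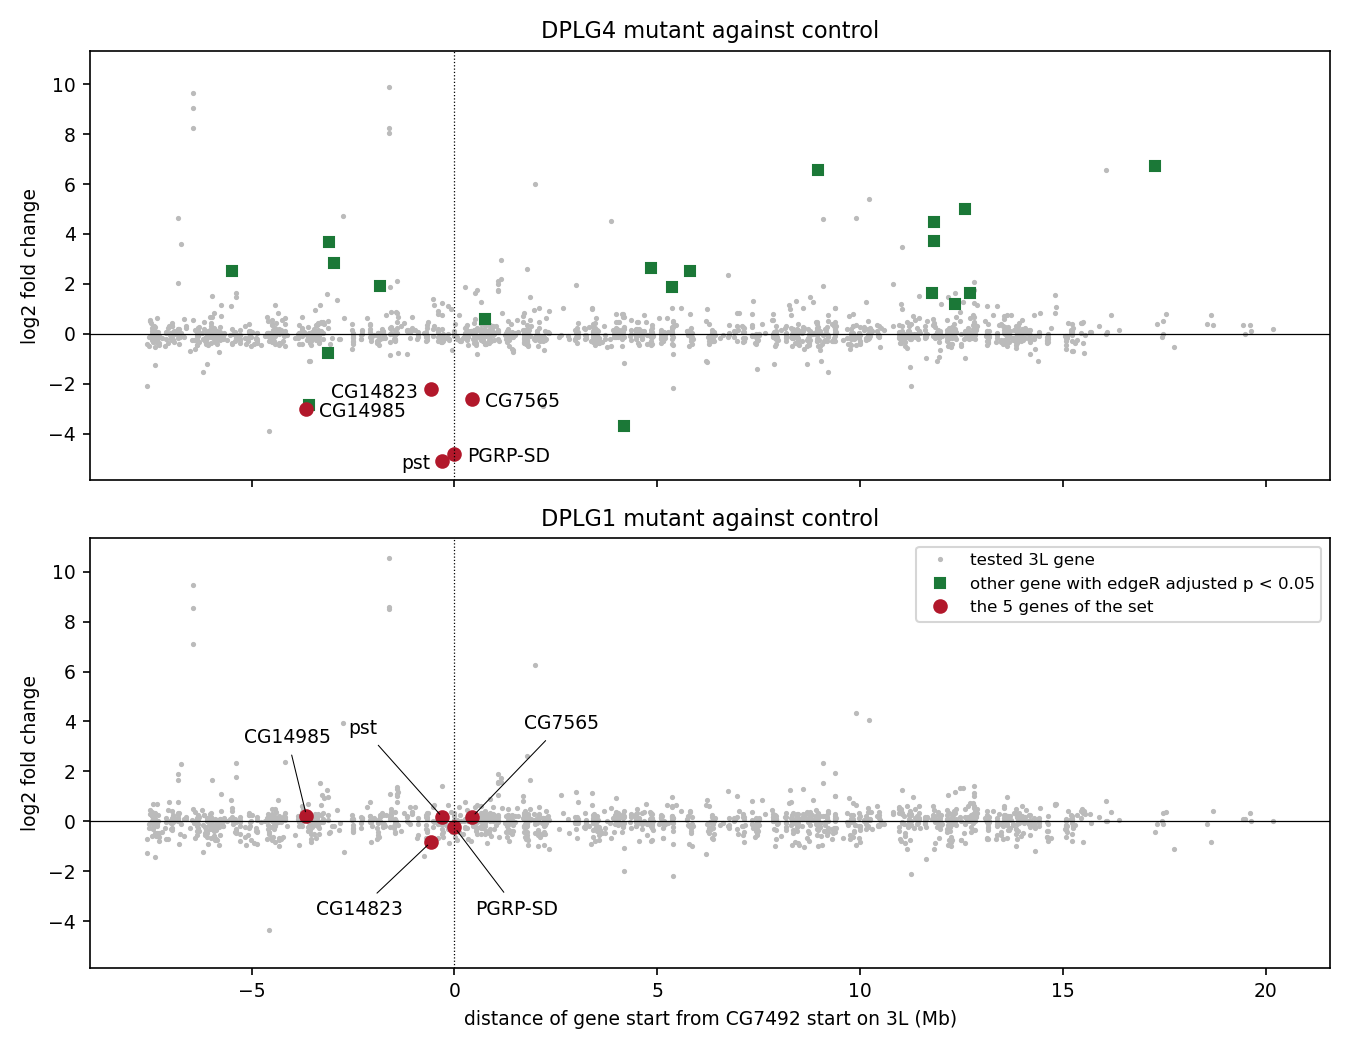
log2 fold change of every tested 3L gene except CG7492 against the distance of its start from that of CG7492 (Mb), for DPLG4 mutant over control (top) and DPLG1 mutant over control (bottom); red points are the 5 genes, green squares other genes past edgeR's threshold. In the top panel the 5 genes lie at -2.22 or below and 16 of the 19 green squares are above 0. In the bottom panel the 5 lie between -0.84 and 0.22 and there are 0 green squares, where 0.107% of all tested genes passed.

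Several members overlap other genes, so it matters whether the counting kept the strands apart. In the annotation, 129 counted genes lay wholly under exons of genes on the opposite strand and shared no exon with a gene of their own strand. Of these, 128 had 0 counts in all 9 libraries, including 42 of the 43 whose partner had at least 10000 counts. The exception was MP1, named after its value was seen, with 1711 counts. Counting without strand, where a read that falls in more than 1 gene is set aside as ambiguous, gives 0 in that position. The authors' annotation release may differ from this one.

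PGRP-SD and CG7492 face each other and share 35 bases at their ends, and both lie within an intron of CG32373. The body of PGRP-SD lies just past the annotated end of the CG7492 transcript. The summed counts held 12.3 PGRP-SD reads per 1000 CG7492 reads in DPLG4 mutants (4 and 326 reads, 95% exact interval 3.32 to 31.7). They held 5.75 per 1000 in DPLG1 mutants (91 and 15824 reads, interval 4.63 to 7.07) and 4.18 per 1000 in controls (80 and 19119 reads, interval 3.32 to 5.21). The intervals, which cover counting error only, overlapped, and the sum in DPLG4 mutants rests on 4 PGRP-SD reads. Without strand, reads from PGRP-SD itself and reads from CG7492 transcripts that run on past their end cannot be told apart. CG32373 stood at 11.1 ± 0.387 CPM in DPLG4 mutants and 11.7 ± 0.343 CPM in controls (edgeR adjusted p = 0.769).

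**Figure D4:**
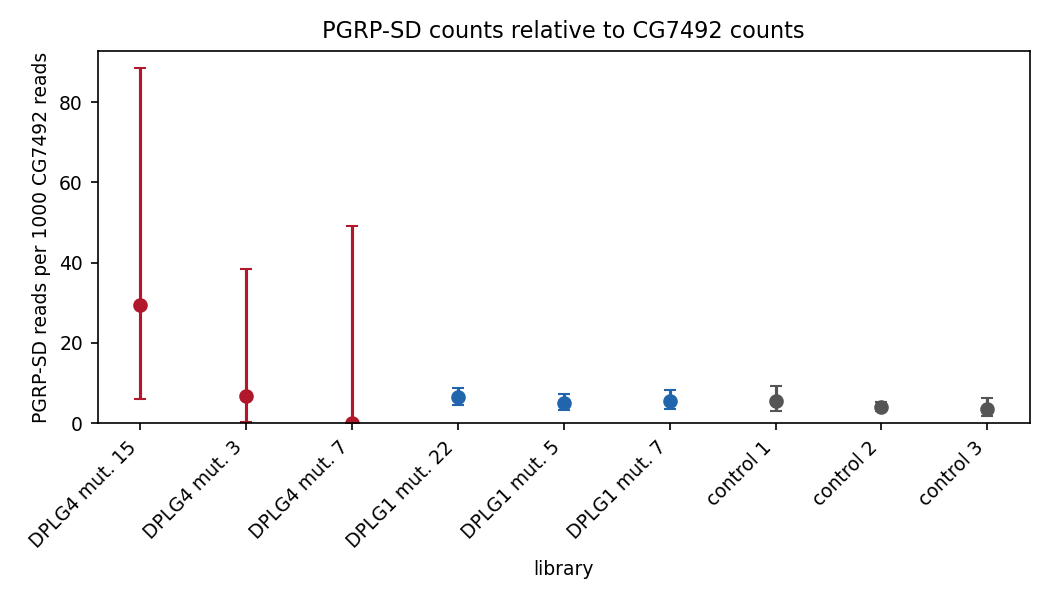
PGRP-SD reads per 1000 CG7492 reads in each library, with 95% exact intervals that cover counting error only. The DPLG1 mutant and control libraries lie between 3.44 and 6.47; the DPLG4 mutant libraries, with 3, 1 and 0 PGRP-SD reads, have intervals up to 38.5 to 88.4.

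CG7492 itself stood at 90.7 ± 17.6 CPM in DPLG1 mutants and 142 ± 26.0 CPM in controls, and these libraries did not overlap. Its log2 fold change of -0.65 (SE 0.17) did not pass edgeR (adjusted p = 0.258) and passed DESeq2 (adjusted p = 0.0345).

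CG14823 shares 766 of its 2339 exon bases, 32.7%, with CG32391 on the opposite strand. CG32391 lies wholly under it and had 0 counts in all libraries. If strand was not used, reads of CG14823 in that stretch were not counted and its level per kb is understated; by how much was not tested. CG14823 also lies within an intron of CG8641, which had 6, 1 and 2 counts in all in DPLG4 mutants, DPLG1 mutants and controls. CG7565 lies within an intron of Sarm, a gene of the opposite strand whose product breaks down NAD in injured axons. Sarm had 30.8, 40.2 and 72.7 CPM in the DPLG4 mutant libraries 15, 3 and 7, against 27.3, 47.2 and 59.7 CPM in the control libraries 1, 2 and 3, and these ranges overlapped (log2 fold change 0.10, edgeR adjusted p = 0.911). The annotation lists no gene that overlaps pst or CG14985 among those counted.

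Other genes of host defence were counted in lists: the peptidoglycan recognition family, the Toll and Imd pathways, antiviral genes and lysozymes. pst is in none of these lists, and they do not place it in a pathway. Over all 8427 tested genes DESeq2 called 72 lower and 156 higher in DPLG4 mutants, and 148 lower and 132 higher in DPLG1 mutants. Its counts in the lists stand beside these. Of 7 tested genes of the peptidoglycan recognition family besides PGRP-SD, 0 were called lower or higher in DPLG4 mutants, with 1, higher, at an unadjusted p under 0.05 (7.32% of all tested genes were higher by that measure) and 0 called by DESeq2. Their median log2 fold change was 0.73, with 5 positive and 2 negative. In DPLG1 mutants edgeR and DESeq2 called 0, 2 were higher at an unadjusted p under 0.05 (7.13% of all tested genes) and the median was 0.93, beside 0.01 over all tested genes. The member with the highest CPM, PGRP-LE, an intracellular receptor, stood at 72.9 ± 2.85 CPM in DPLG4 mutants, 80.3 ± 4.11 CPM in DPLG1 mutants and 79.6 ± 14.7 CPM in controls. PGRP-LC, with the smallest p of the 7 in DPLG1 mutants, stood at 1.08 ± 0.155, 1.38 ± 0.106 and 0.769 ± 0.223 CPM in the same groups (edgeR adjusted p = 0.561 for DPLG4 mutants and 0.276 for DPLG1 mutants). Its libraries lay above all controls in both mutants, as did 9.48% of all tested genes in DPLG4 mutants and 15.8% in DPLG1 mutants. PGRP-SC2, an amidase that degrades peptidoglycan, stood at 0.232 ± 0.193, 0.214 ± 0.161 and 0.0284 ± 0.0492 CPM in the same groups (edgeR adjusted p = 0.432 for DPLG4 mutants and 0.289 for DPLG1 mutants). Its control libraries ran from 0 to 0.0853 CPM, near the floor. That floor of 3 counts was 0.128, 0.0321 and 0.172 CPM in control libraries 1, 2 and 3.

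In the Toll list, 16 genes were tested, and edgeR called 0 in either mutant. In DPLG4 mutants 1 was lower and 1 higher at an unadjusted p under 0.05, beside 3.45% and 7.32% of all tested genes, DESeq2 called 1 and the median log2 fold change was -0.11. In DPLG1 mutants 4 of the 16 were lower and 0 higher by that measure, beside 9.85% and 7.13% of all tested genes, DESeq2 called 1 and the median was -0.11. GNBP1, which acts with peptidoglycan receptors upstream of Toll, stood at 4.60 ± 0.887 CPM in DPLG4 mutants, 2.89 ± 0.215 CPM in DPLG1 mutants and 2.28 ± 0.275 CPM in controls (edgeR adjusted p = 0.119 for DPLG4 mutants). In the Imd list of 10 tested genes edgeR and DESeq2 called 0 in either mutant, and at an unadjusted p under 0.05 there were 0 in DPLG4 mutants and 1, higher, in DPLG1 mutants. The medians were -0.03 in DPLG4 mutants and 0.002 in DPLG1 mutants. The Imd transcription factor gene Rel stood at 70.6 ± 6.91 CPM in DPLG4 mutants and 80.6 ± 1.78 CPM in controls (edgeR adjusted p = 0.582).

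The antiviral list, with RNA interference and Jak-STAT genes, had 14 tested genes, of which edgeR and DESeq2 called 0 in either mutant. At an unadjusted p under 0.05, 1 was lower and 0 higher in DPLG4 mutants, beside 3.45% and 7.32% of all tested genes. In DPLG1 mutants 1 was lower and 2 higher, beside 9.85% and 7.13%. The medians were 0.005 in DPLG4 mutants and 0.10 in DPLG1 mutants. Stat92E, the transcription factor of the Jak-STAT pathway, stood at 285 ± 3.94 CPM in DPLG4 mutants and 328 ± 18.1 CPM in controls (edgeR adjusted p = 0.432). Of the lysozymes other than CG14823, 4 were tested. CG6426, also of the invertebrate type, stood at 0.660 ± 0.110 CPM in DPLG4 mutants and 0.675 ± 0.122 CPM in controls. LysB, LysC and LysE, near-identical genes whose reads may be split between them, had 0 counts in every control, so no median is given for the list, and edgeR called 0 and DESeq2 1 of the 4 in either mutant.

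LysB is known from the gut. Gut markers moved with it: the summed level of 9 markers ran from 0.0394 to 31.0 CPM over the DPLG4 mutant libraries, from 0.107 to 45.2 CPM over the DPLG1 mutant libraries and from 0.0426 to 0.129 CPM over the controls, and their part in the lysozyme values was not tested. Among fat body markers, a tissue that makes many defence proteins, Lsp2, Lsp1alpha, Fbp1 and Fbp2 averaged 0.122 CPM or less in every group. Of the 3 tested fat body markers, 1 was higher in DPLG4 mutants than in controls and 2 were lower. Lsp1beta stood at 0.752 ± 0.428 CPM in DPLG4 mutants and 0.236 ± 0.211 CPM in controls (edgeR adjusted p = 0.432). Lsp1gamma stood at 0.685 ± 0.0870 CPM in DPLG4 mutants and 0.894 ± 0.153 CPM in controls (edgeR adjusted p = 0.631). For apolpp the levels were 49.2 ± 9.72 CPM in DPLG4 mutants and 54.4 ± 13.5 CPM in controls (edgeR adjusted p = 0.763). The summed level of 7 such markers, mostly apolpp, ran from 39.0 to 58.1 CPM in DPLG4 mutants and from 45.4 to 70.9 CPM in controls. For 7 hemocyte markers, mostly crq, it ran from 359 to 401 CPM in DPLG4 mutants and from 380 to 404 CPM in controls. Within that list Hml stood at 0.574 ± 0.142 CPM in DPLG4 mutants and 1.24 ± 0.582 CPM in controls (edgeR adjusted p = 0.455), and srp at 7.58 ± 0.817 CPM in DPLG4 mutants and 4.81 ± 1.03 CPM in controls (edgeR adjusted p = 0.278), and DESeq2 called 1 gene of the list. The 8 muscle markers summed to 86.1 CPM or more in DPLG4 mutants and to 73.1 to 88.3 CPM in controls, and these ranges overlapped. The 10 follicle cell markers summed to 895 to 1319 CPM in DPLG4 mutants and 477 to 873 CPM in controls, without overlap. In DPLG1 mutants they summed to 676 to 936 CPM, a range that met both. All 8 tested follicle cell markers were higher in DPLG4 mutants (median log2 fold change 0.77). Of these edgeR called 0, DESeq2 called 1, and 3 had an unadjusted p under 0.05, where 7.32% of all tested genes were higher. In DPLG1 mutants 5 of the 8 were lower and 3 higher. The 8 germline markers summed to 2526 to 2842 CPM in DPLG4 mutants and 2526 to 3012 CPM in controls. The part of these cell types in the low level of the 5 genes was not tested.

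Outside the 5 members and CG7492, which were left out of the search, the genes with the pattern most like that of each member were found by Pearson's r of log2(CPM + 0.1) over the 9 libraries. Since the DPLG4 mutant libraries stand apart from the other 6, r mainly records that split, and it is given without a test. Of the genes searched, CG11357 was the closest to pst (r = 0.993), CG7565 (r = 0.99) and CG14985 (r = 0.988), with Ugt305A1 the second in each case (r = 0.976, 0.974 and 0.98). For PGRP-SD the order was Ugt305A1 (r = 0.978), CG11357 (r = 0.974) and Galphaf (r = 0.951), a G protein gene also on 3L. For CG14823 it was Sema1b on 2R (r = 0.938), Aps on 3L and CG4259 on 2L (both r = 0.916), and of these Sema1b stood at 307 ± 13.4 CPM in DPLG4 mutants and 347 ± 5.76 CPM in controls. Next came FBgn0038035, for which the reference tables gave no symbol or position, for pst (r = 0.956) and CG14985 (r = 0.979), and HPS4 on 2R for CG7565 (r = 0.954).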

How the data were processed

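Per the labels, total ovary RNA was sequenced. The authors deposited raw counts per gene, 1 file per library, and per the submitters' processing notes used FastQC, STAR 2.5, HTSeq and DESeq2 with the builds BDGP6 and GRCh37. Sources used here give neither annotation release nor strand setting. Symbols and positions came from Ensembl BDGP6.54, release 115, which matched 17253 identifiers and left 306 unmatched. The summary lines for reads outside genes stayed out of all sums and tests.

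Genes were kept by filterByExpr, scaled by TMM and fitted with edgeR 4.0.16 (R 4.3.3, robust quasi-likelihood, group only, all 9 libraries). Alternatives were DESeq2 size factors, the DESeq2 1.42.0 Wald test, other filters, the 6 libraries compared, and leaving out each library. Members, lists and the naming rule (members, flanking genes, most similar genes, and list genes with the smallest p) were chosen with earlier results of these data known. Intervals and floors cover counting error only. The p-values set a difference between groups against the spread between these libraries. In the main fit that spread was estimated from all 9 libraries, with information shared across genes.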

Additional observations from a re-analysis of the deposited data

How the results depend on the processing

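The log2 fold changes of pst, CG7565 and CG14985 in DPLG4 mutants against controls moved by less than the replicate spread under all 14 alternatives, and so did CG14823 under the 13 that could be run. Leaving out each library gave -5.24 to -5.00 for pst, -2.68 to -2.49 for CG7565, -3.10 to -2.92 for CG14985, -2.39 to -2.05 for CG14823 and -6.10 to -4.38 for PGRP-SD. PGRP-SD and CG14823 were not tested when 1 CPM was asked for in 3 libraries, and DESeq2 gave them no adjusted p in DPLG1 mutants. In DPLG1 mutants no member passed under any alternative, with adjusted p from 0.171 to 0.936. Counts of calls depended on the fit. In DPLG4 mutants, 13 genes were called lower and 23 higher; DESeq2 called 72 and 156, and the fit to the 6 libraries compared called 5 and 7. Leaving out each library gave 6 to 11 lower and 5 to 25 higher. In DPLG1 mutants, 4 were called lower and 5 higher; DESeq2 called 148 and 132, no filter on low counts gave 7 lower, and leaving out each library gave 3 to 12 lower and 3 to 7 higher. No paired analysis was possible because the groups share fewer than 2 replicate numbers. Depth limits PGRP-SD and CG14823, with 4 and 19 reads over the DPLG4 mutants.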

Other observations

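spirit, a serine protease gene upstream of Toll that lies on the X chromosome, was chosen after its values were seen. It had 0.0825, 0.0518 and 0.0787 CPM in the DPLG4 mutant libraries 15, 3 and 7, with 5, 5 and 4 counts, and 0.298, 0.600 and 0.572 CPM in the control libraries 1, 2 and 3. The DPLG1 mutant libraries 22, 5 and 7 had 1.60, 1.59 and 2.09 CPM. The log2 fold change of DPLG4 mutant over control was -2.82 (SE 0.38), given as a description: the DPLG4 mutant libraries lay under the filter on low counts, which the gene passed through the other groups. In DPLG1 mutants it stood above every control without passing the test (edgeR adjusted p = 0.118), with a log2 fold change of 1.81 (SE 0.32).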
